A study of Mus musculus with 12 samples.

Results

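Glycolysis splits glucose into pyruvate, and lactate dehydrogenase then converts pyruvate to lactate and regenerates the NAD that the pathway needs. The messages of 10 genes of this route were followed in the gastrocnemius and the quadriceps of mice that flew in space and of mice that stayed on the ground. The genes were chosen by name: Pfkm, Aldoa, Tpi1, Gapdh, Pgk1, Pgam2, Eno3 and Pkm of glycolysis, and Ldha and Ldhb for lactate dehydrogenase subunits. They are 10 of the 36008 genes listed and 10 of the 10481 genes tested, since all of them exceeded the filter of 5 TPM (a level corrected for transcript length and scaled to a fixed total in each library) in every library.

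The study sequenced polyA RNA from 2 left hind-limb muscles of 6 female mice, which made 12 libraries in 4 groups of 3. Mice M11, M12 and M20 spent 9 weeks on the International Space Station, and mice M02, M03 and M08 were kept in matching hardware on the ground for the same time. All mice were 30 weeks old at the start and all received injections of PBS, the control of a drug trial, so no group was free of injections. Strain was given as C57BL/6 in the sample labels and as BALB/c in the study's methods, and was not used in any comparison. The muscles were dissected from carcasses that had been frozen and then thawed, and each library came from 1 muscle of 1 mouse.

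In skeletal muscle, fast-twitch fibers rely on glycolysis for short, strong contractions, and slow-twitch fibers burn fat, glucose and lactate in their mitochondria. The LDHA subunit predominates in fast fibers and the LDHB subunit in slow fibers and the heart. Fast fibers prevail in both the gastrocnemius and the quadriceps of the mouse. By staining of right hind limbs, the study reported slow and fast fibers in the gastrocnemius, with fewer slow ones after flight. In the quadriceps it reported fast fibers only.

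The libraries held the messages of muscle: Acta1, the actin of the thin filament, lay between 15946 and 20633 TPM, and Ckm, muscle creatine kinase, between 11935 and 17348 TPM. All 9 muscle fiber markers were above 0 in every library. TPM carry no counting depth, so the precision of each value rests on the spread between 3 mice. The quadriceps library of ground mouse M08 listed 18172 genes above 0, against 20291 to 21265 in the other libraries, and the members' differences in the quadriceps that are largest or separate the groups are also given without it. In bulk muscle, fewer fibers of a type and less RNA per fiber cannot be told apart.

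Sequence decides which of these genes a short read can name, and reads here were 50 bases long. Ldha and Ldhb share none of their 31-mers (runs of 31 bases, the length that the quantification program indexes by default), and their longest identical coding stretch is 18 bases. The 60 coding bases around that stretch are shown because the Ldha to Ldhb ratio rests on telling these messages apart. Capitals mark the 9 bases that differ. Both stretches join exon 6 to exon 7 and come from the GENCODE vM21 transcripts on GRCm38, at chr7:46851962-46854009 on the plus strand for Ldha and chr6:142492590-142494132 on the minus strand for Ldhb, introns included in the coordinates.
Ldha: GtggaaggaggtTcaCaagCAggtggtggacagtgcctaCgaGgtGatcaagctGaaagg
Ldhb: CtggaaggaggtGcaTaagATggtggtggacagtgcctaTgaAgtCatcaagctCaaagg
Over 996 coding bases laid side by side, 69.3% were identical between the 2 genes.

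Pgk1, the phosphoglycerate kinase that makes the first ATP of the pathway, is in the opposite position. Its processed pseudogene Gm5537, a copy of the spliced message without introns on chromosome 3, is identical over its whole length of 1252 bases to bases 152 to 1403 of the Pgk1 transcript of 1825 bases. All 31-mers of Gm5537 therefore occur in Pgk1, and 54.7% of the 31-mers of Pgk1 occur in some other gene. The first 60 coding bases of Pgk1 and the first 60 bases of Gm5537 are shown with the start codon in capitals, from chrX:106187251-106187310 on the plus strand and chr3:58104188-58104247 on the minus strand.
Pgk1: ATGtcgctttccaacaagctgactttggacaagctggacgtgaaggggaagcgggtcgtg
Gm5537: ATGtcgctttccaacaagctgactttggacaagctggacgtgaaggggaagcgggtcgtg
In this reference a read from this stretch carries no base that tells the gene from its copy. The reference is of the C57BL/6 strain, and how the copies compare in BALB/c, the strain that the study's methods name, was not analysed here.

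Gapdh, glyceraldehyde-3-phosphate dehydrogenase, has 43 copies in the table that share at least 50% of their 31-mers with it. One of them, Gm13394, is a processed pseudogene of 1000 bases that differs from the Gapdh transcript at 1 base. That base is in capitals in the 60 bases shown, which lie at chr6:125162987-125163144 on the minus strand in exons 3 to 4 of Gapdh and at chr2:28934235-28934294 on the minus strand in Gm13394.
Gapdh: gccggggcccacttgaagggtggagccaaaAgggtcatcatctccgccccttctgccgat
Gm13394: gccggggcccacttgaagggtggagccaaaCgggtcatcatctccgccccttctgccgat
Gm13394 was listed at 5177 to 6684 TPM, above Gapdh itself at 3537 to 4757 TPM. Copies held 54.9% to 60.4% of the summed TPM of Gapdh and its copies, so the level of Gapdh alone is uncertain. Of the other members, Tpi1, Pkm and Ldhb each had 1 such copy with at most 0.261% of the summed TPM. Pfkm, Aldoa, Pgam2, Eno3 and Ldha had none at that limit. Still, 19.6% of the 31-mers of Ldha, 17% of Aldoa and 9.35% of Pfkm occur in some other gene. For Ldhb this share was 33%, and for Pgam2 and Eno3 it was 0.

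The order of the levels was similar in all 4 groups. Aldoa, the aldolase that splits fructose bisphosphate, had the highest level of any member's own row in all 4 groups, at 9975 ± 360.0 TPM (SD, n = 3) in the ground gastrocnemius and 11284 ± 240.3 TPM (SD, n = 3) in the ground quadriceps. Gapdh and then Eno3, the muscle enolase, followed in every group without overlap between neighbours. Summed with its copies, Gapdh reached 9026 to 10434 TPM in the ground gastrocnemius and 8793 to 10863 TPM after flight, and 9795 to 11545 TPM in the flight quadriceps, which overlapped with Aldoa. Pfkm, the phosphofructokinase of muscle that commits glucose to the pathway, was listed at 1412.5 to 1841 TPM. Pkm, Ldha, Tpi1 and Pgam2, which are pyruvate kinase, the LDHA subunit, triose phosphate isomerase and muscle phosphoglycerate mutase, lay in the same range, between 1069 and 1932 TPM, and most neighbours in that order overlapped. Pgk1, at 114 to 347 TPM, and Ldhb, at 110.2 to 194 TPM, were the lowest in every group. They overlapped in the flight gastrocnemius only.

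**Figure D1:**
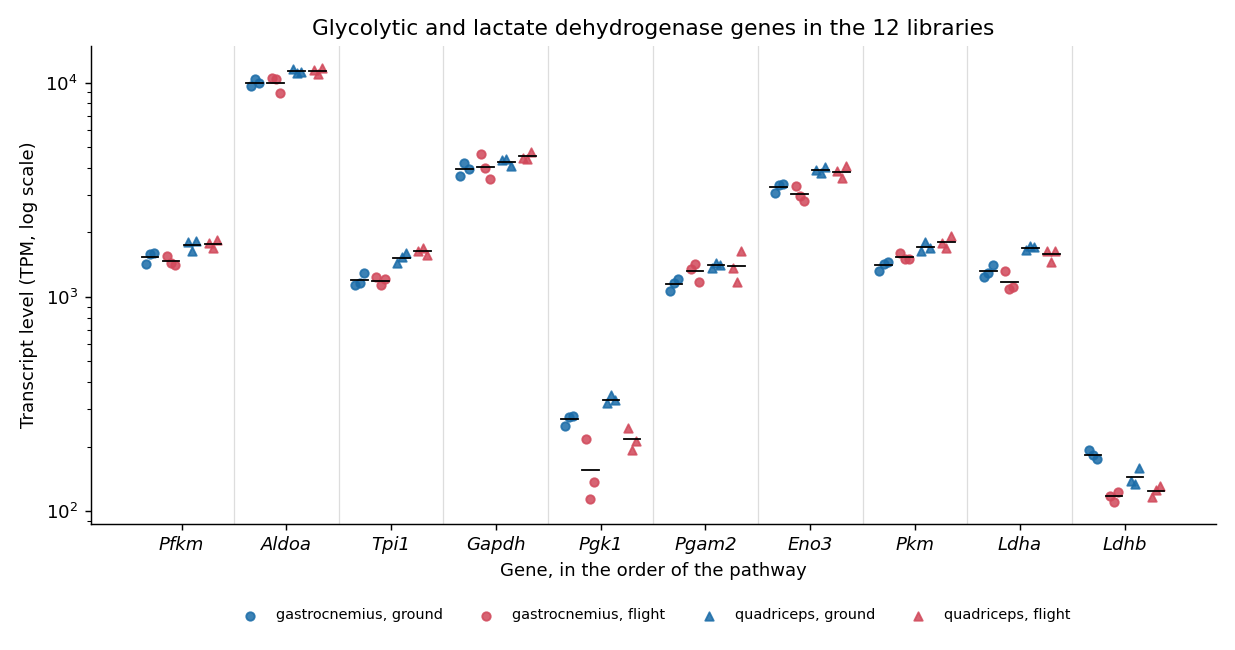
TPM of the 10 glycolytic and lactate dehydrogenase genes in the 12 libraries, by muscle and condition, with 1 point per mouse and a bar at the mean of 3 mice. Ldhb of the flight gastrocnemius lies at 110.2 to 123 TPM, below the ground gastrocnemius at 175 to 194 TPM.

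Among the isozymes of each enzyme, the main form took nearly all of the level. Pfkm held 99.0% to 99.4% of the TPM of the phosphofructokinase genes, Eno3 98.9% to 99.4% of the enolases and Pgam2 98.8% to 99.4% of the mutases. These shares use each gene's own row. Copies were looked for only for the members, so any level on copies of the other isozymes is left out. Lactate dehydrogenase was the exception, with Ldhb at 6.62% to 13.5% of the sum over Ldha, Ldhb and the testis gene Ldhc. Together the 10 members made up 2.34% to 3.06% of the listed TPM of a library.

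The first comparison asked which members differed between flight and ground in the gastrocnemius, the calf muscle that extends the ankle and flexes the knee. Ldhb alone passed the test. Its level was 194, 182 and 175 TPM in ground mice M02, M03 and M08, and 118, 110.2 and 123 TPM in flight mice M11, M12 and M20. Every flight mouse lay below every ground mouse. The level fell by 0.65 on the log2(TPM + 1) scale (SE 0.078, 95% confidence interval -0.83 to -0.46), to 0.639 times the ground level, with an adjusted p of 0.036 in limma. A call needed both an adjusted p under 0.05 and more than 1.5-fold difference, and 0.229% of the 10481 genes tested were called in this muscle. Of these 24 genes 12 were higher, and 6 of 18 were after the libraries were rescaled by their median ratio. Leaving out any mouse other than M11 raised the adjusted p above the threshold (0.076 without M08, 0.11 without M12, 0.15 without M20, 0.16 without M02 and 0.20 without M03), while the log2 change stayed between -0.68 and -0.60.

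Pgk1 had the widest difference in its own row without passing the test. It was listed at 250.01, 275 and 279 TPM on the ground and at 218, 114 and 137 TPM after flight. The groups did not overlap, and flight mouse M11 lay between the ground mice and the other flight mice. The difference was -0.83 on the log2 scale (SE 0.21, interval -1.33 to -0.33) with an adjusted p of 0.17, and it became -1.09 with an adjusted p of 0.017 without M11.

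The other 8 members stayed within 0.20 log2 of the ground level. Pkm was listed at 1323, 1424.5 and 1453 TPM on the ground and 1601, 1494.7 and 1495.7 TPM after flight, without overlap, a difference of 0.13 (adjusted p = 0.42). For Ldha the levels were 1243, 1295 and 1412.5 TPM on the ground and 1323, 1089 and 1114 TPM after flight, which overlapped (-0.17, adjusted p = 0.44). Pgam2 differed by 0.19 (interval -0.023 to 0.41, adjusted p = 0.37), and Tpi1 and Aldoa by 0.00 each. In all, 3 of the 10 members had groups that did not overlap, against 21.0% of all genes tested, and 2 of 10 had an unadjusted p under 0.05, against 15.1%. The median over the members was -0.03 log2, beside 0.02 over all genes tested.

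In the quadriceps, the thigh muscle that extends the knee, no member passed the test. Over all genes 0.0286% were called (1 higher of 3, and 0 of 1 after rescaling), and 10.8% had an unadjusted p under 0.05, as did 1 member, Pgk1. Pgk1 was listed at 319, 347 and 328 TPM in ground mice M02, M03 and M08 and at 245, 193 and 213 TPM in flight mice M11, M12 and M20. The flight values all lay below the ground values, by 0.61 on the log2 scale (SE 0.096, adjusted p = 0.22). Ldhb was listed at 139, 133 and 159 TPM on the ground and 116, 125 and 131 TPM after flight. These groups did not overlap either, although the lowest ground and the highest flight mouse were close. The difference was -0.21 (interval -0.42 to 0.0048, adjusted p = 0.47), and -0.13 without ground mouse M08.

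**Figure D2:**
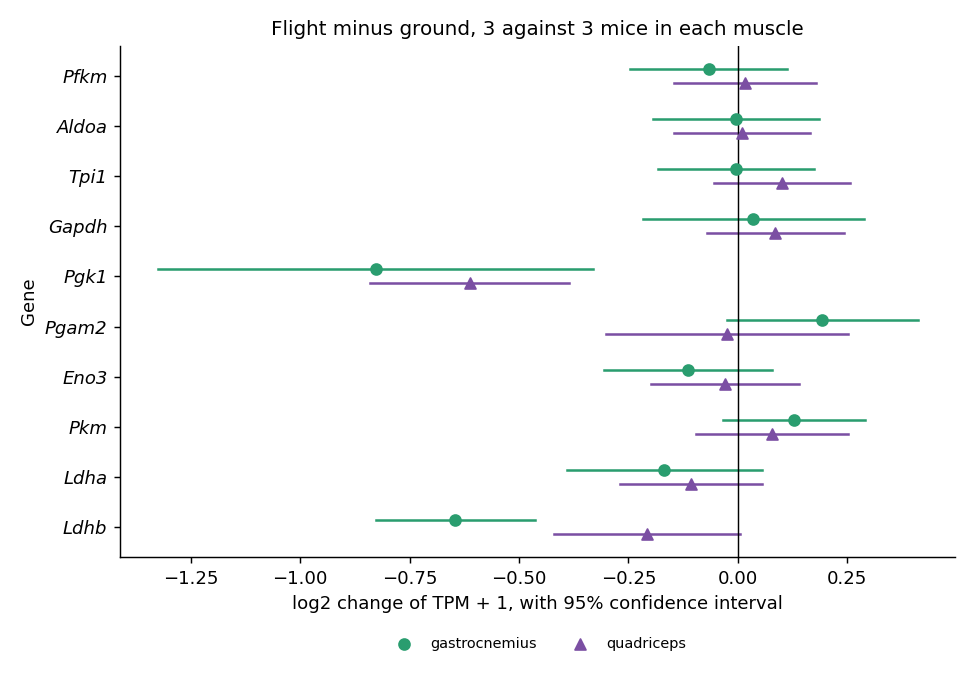
Difference between flight and ground for each member on the log2(TPM + 1) scale, with its 95% confidence interval from limma, for 3 against 3 mice in the gastrocnemius (circles) and in the quadriceps (triangles). Ldhb at -0.65 and Pgk1 at -0.83 lie farthest from 0 in the gastrocnemius, and the intervals of the other 8 members include 0 in both muscles.

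Ldha was at 1659, 1719 and 1714 TPM on the ground and 1636, 1459 and 1643 TPM after flight in the quadriceps, and Gapdh at 4353, 4395 and 4083 TPM and 4448.5, 4417 and 4757 TPM. Both pairs of groups were separate, with differences of -0.11 and 0.09. With Pgk1 and Ldhb, 4 of the 10 members had groups that did not overlap, against 17.4% of all genes. The remaining 6 members differed by at most 0.10 in either direction. Without the library of ground mouse M08, Pgk1 differed by -0.62, Ldha by -0.10 and Gapdh by 0.05, and no member passed the test. The summed level of 6 adipocyte markers was 324 to 600.2 TPM in the ground quadriceps and 205 to 285 TPM after flight, and the part of this in the members' differences was not tested.

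The Pgk1 difference was met by an opposite one in its pseudogene. In the gastrocnemius, Gm5537 was listed at 155, 140.3 and 144 TPM on the ground and at 231, 229 and 210.1 TPM after flight, a rise of 0.60 log2 that was called (SE 0.078, adjusted p = 0.045 in limma). In the quadriceps it was listed at 199.6, 198 and 179.8 TPM on the ground and at 308, 295 and 346 TPM after flight, a difference of 0.71 (adjusted p = 0.16). All flight values lay above all ground values in both muscles. Another copy, Pgk1-rs7, was listed at 2.29 to 34.8 TPM.

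The copies of Pgk1 thus held 34.5% to 38.8% of the summed TPM in the ground gastrocnemius and 52.3% to 69.9% after flight, and 36.02% to 39.3% and 56.6% to 62.5% in the quadriceps. Summed over Pgk1 and its 3 copies, the level was 421 ± 13.4 TPM (SD, n = 3) on the ground and 398 ± 51.7 TPM after flight in the gastrocnemius, and 531 ± 20.7 and 544 ± 39.7 TPM in the quadriceps. The difference between flight and ground then became -0.09 (adjusted p = 0.71) and 0.03 (adjusted p = 0.89). Which of the rows the reads came from cannot be told apart in the stretch that they share. For Gapdh, the sum with its copies differed by 0.03 and 0.05 between flight and ground.

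**Figure D3:**
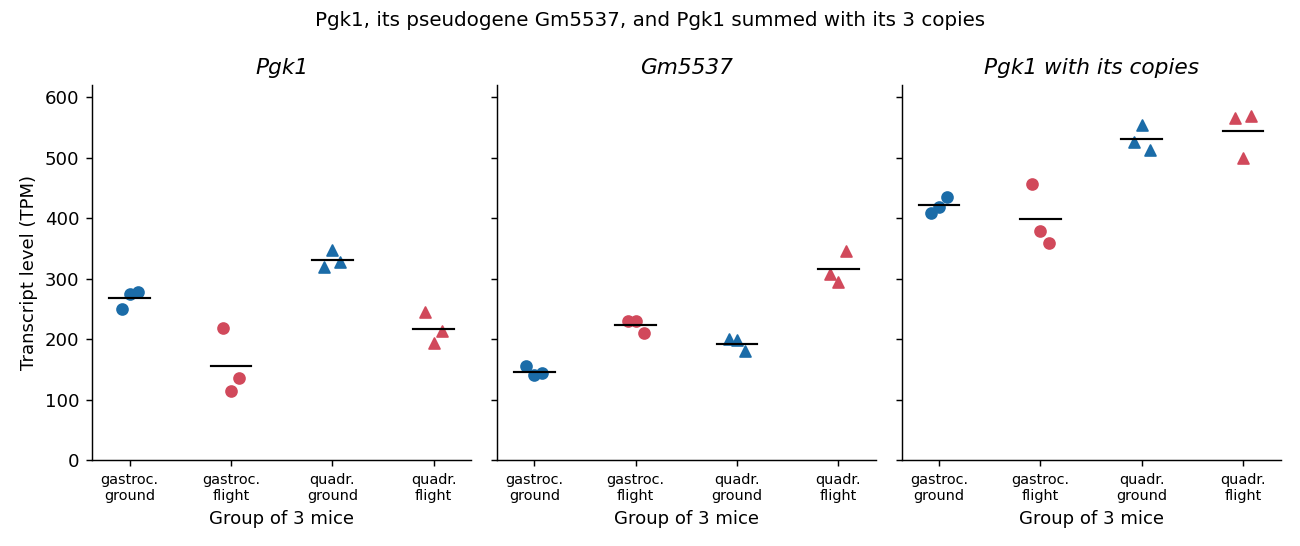
TPM of Pgk1, of its pseudogene Gm5537 and of Pgk1 summed with its 3 copies, in 4 groups of 3 mice, with 1 point per mouse and a bar at each group mean. Pgk1 is lower and Gm5537 higher after flight in both muscles, while the sums of ground and flight mice overlap in both muscles.

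The Ldha to Ldhb ratio joins both subunits of lactate dehydrogenase in 1 value per library. In the gastrocnemius it was 6.42, 7.12 and 8.08 in ground mice M02, M03 and M08 and 11.2, 9.88 and 9.06 in flight mice M11, M12 and M20. The flight ratios were all above the ground ratios, with means of 10.1 ± 1.0995 and 7.21 ± 0.832 (SD, n = 3 each). The difference of 0.48 log2, 1.397-fold, had p = 0.1 in a two-sided exact permutation test, the smallest that 3 mice against 3 allow.

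In the quadriceps the ratios were 11.96, 12.9 and 10.8 on the ground and 14.1, 11.7 and 12.5 after flight. These groups overlapped, with means of 11.9 ± 1.05 and 12.8 ± 1.23 (SD, n = 3 each), and the difference of 0.10 log2 had p = 0.5 in the exact permutation test. Without ground mouse M08 the difference was 0.04 log2. Expressed as a share, Ldhb was 12.3% ± 1.23 of the sum of Ldha and Ldhb in the ground gastrocnemius, 9.10% ± 0.887 in the flight gastrocnemius, 7.80% ± 0.643 in the ground quadriceps and 7.30% ± 0.635 in the flight quadriceps (SD, n = 3). The 2 gastrocnemius groups were separate from each other, and both quadriceps groups lay below the flight gastrocnemius in their means.

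Within a mouse, the gastrocnemius had the lower ratio in 6 of 6 mice, by 0.53 log2 on average, or 0.691-fold. An exact sign-flip test over the 6 mice gave p = 0.03125, the smallest it can give. The flight effect on the ratio was larger in the gastrocnemius than in the quadriceps by 0.38 log2, with p = 0.2 in the exact permutation test. For Ldhb itself the difference between the muscles in the flight effect was -0.44 log2, with an adjusted p of 0.89 in limma. No gene was called in that comparison (0%), 5.09% of all genes had an unadjusted p under 0.05, and Ldhb was the only member among them.

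**Figure D4:**
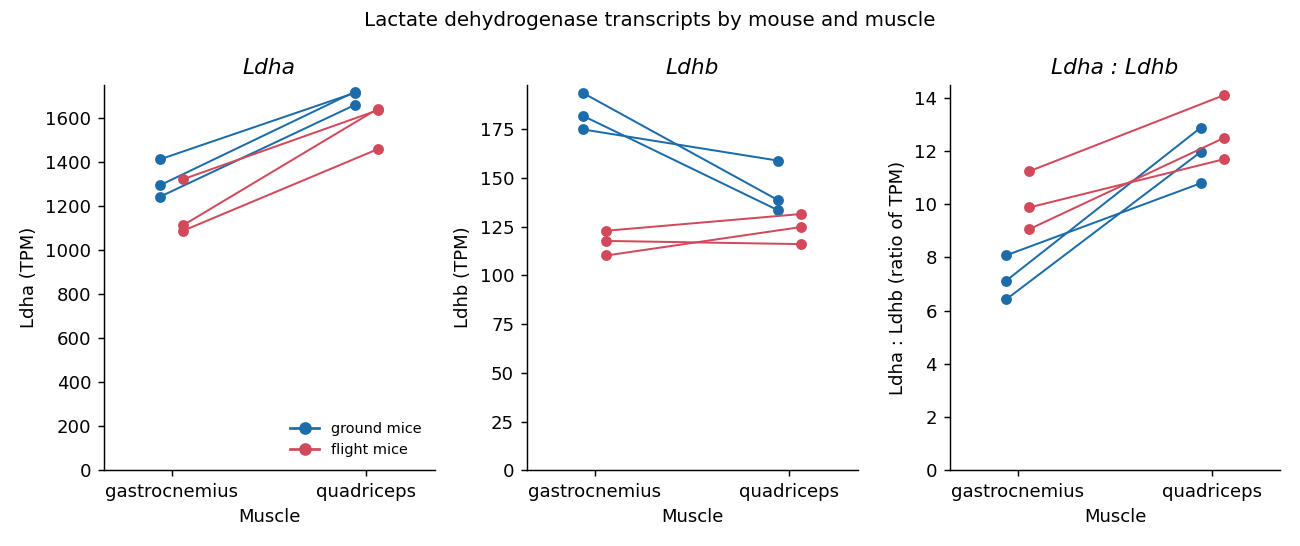
TPM of Ldha, TPM of Ldhb and the Ldha to Ldhb ratio in the gastrocnemius and the quadriceps, with the 2 muscles of a mouse joined by a line. The ratio lies between 6.42 and 8.08 in the ground gastrocnemius and between 9.06 and 14.1 in the other groups, and every line rises from the gastrocnemius to the quadriceps.

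The 2 muscles of the same mice were then compared with the mouse as a block. On the ground, 4 members passed an adjusted p under 0.05, 3 lower and 1 higher in the gastrocnemius. Over all genes, 10.1% were lower and 1.83% higher at that limit. The lower ones were Ldha (-0.37, SE 0.070, adjusted p = 0.020), Tpi1 (-0.35, SE 0.065, adjusted p = 0.019) and Pkm (-0.29, SE 0.067, adjusted p = 0.034). Ldhb was the higher one, by 0.35 (SE 0.088, adjusted p = 0.039). No member exceeded 1.5-fold, so none was called, against 3.20% of all genes. Leaving out any 1 ground mouse left no member past the limit.

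After flight, 5 members passed the same limit and all were lower in the gastrocnemius, against 11.6% of all genes lower and 1.81% higher. They were Tpi1 (-0.46, adjusted p = 0.0084), Ldha (-0.43, adjusted p = 0.011), Pgk1 (-0.52, adjusted p = 0.021), Eno3 (-0.36, adjusted p = 0.022) and Pfkm (-0.27, adjusted p = 0.049). Ldhb differed by -0.08 (adjusted p = 0.56). None was called, against 3.34% of all genes, and 3 members passed the limit without flight mouse M11, 2 without M20 and 0 without M12. Summed with its copies, Pgk1 was lower in the gastrocnemius by 0.33 log2 on the ground (adjusted p = 0.038) and by 0.46 after flight (adjusted p = 0.014).

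The direction was shared by most members. In 6 of 6 mice the gastrocnemius held less of Pfkm, Aldoa, Tpi1, Pgk1, Eno3, Pkm and Ldha, and in 5 of 6 mice less of Gapdh and Pgam2. Ldhb was higher in the gastrocnemius of all 3 ground mice and lower in that of 2 of the 3 flight mice. The groups did not overlap for 9 members on the ground and 6 after flight, against 33.8% and 30.4% of all genes.

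Part of this direction belonged to the whole table. The median over all genes was -0.12 log2 on the ground and -0.11 after flight, beside -0.28 and -0.25 over the members. When the libraries were rescaled to bring the median of all genes to about 0, Ldhb alone passed on the ground (0.48, adjusted p = 0.026), while Ldha was at -0.24 (adjusted p = 0.080), Tpi1 at -0.23 (adjusted p = 0.12) and Pkm at -0.16 (adjusted p = 0.18). After flight Ldha (-0.31, adjusted p = 0.041) and Tpi1 (-0.33, adjusted p = 0.043) passed. Gapdh on the ground, and Pgam2 and Ldhb after flight, turned to 0.0043, 0.048 and 0.036 under this scaling. Of the calls over all genes, 102 of 335 were higher in the gastrocnemius on the ground and 105 of 350 after flight, and 144 of 225 and 141 of 240 after rescaling.

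**Figure D5:**
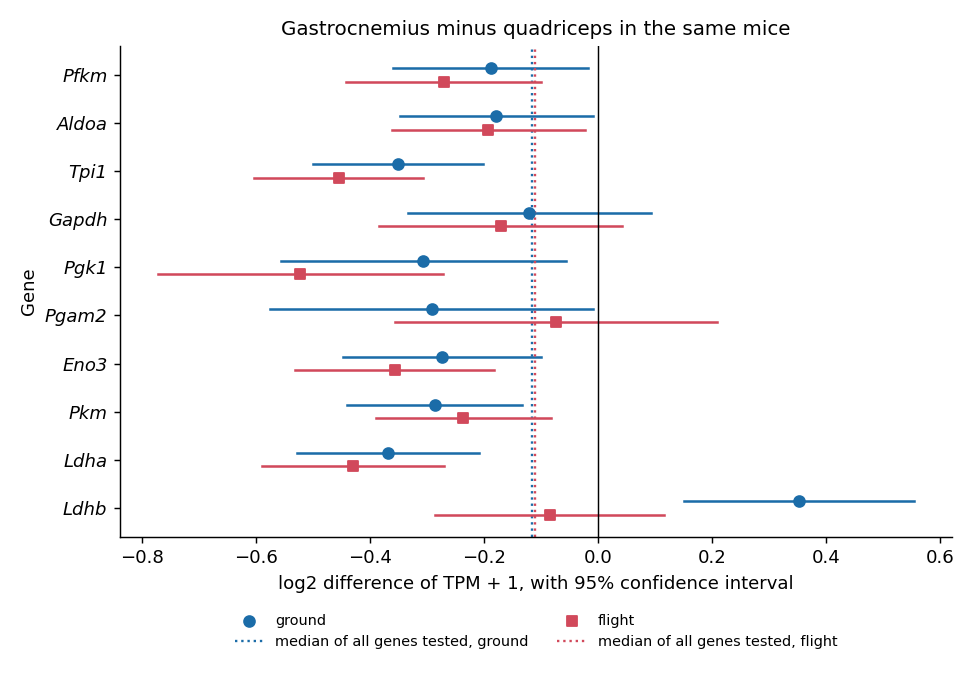
Difference between gastrocnemius and quadriceps for each member on the log2(TPM + 1) scale, with its 95% confidence interval from limma with the mouse as a block, on the ground and after flight. Ldhb lies at 0.35 on the ground and -0.08 after flight, and Ldha and Tpi1 lie between -0.46 and -0.35 in both conditions.

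Cells other than fibers also differed between the muscles. The summed TPM of 5 Schwann cell markers was 145 to 309 in the gastrocnemius and 57.7 to 92.3 in the quadriceps, and all 5 passed an adjusted p under 0.05 in both conditions. Of 6 adipocyte markers, 4 were called lower in the gastrocnemius on the ground and 0 after flight. None of these markers was at 0 in any library. Their part in the members' differences was not tested.

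Fiber type genes were read beside the members, from a list of 16, all tested. In the gastrocnemius 3 of them were called lower after flight and 0 higher, each with an adjusted p of 0.036 in limma. They were Myl2 (-1.33) and Myl3 (-0.90), the light chains of slow myosin, and Atp2a2 (-0.88), the calcium pump of slow fibers. Myh7, the slow myosin heavy chain, differed by -0.25 (adjusted p = 0.41), Myh2, the heavy chain of fast oxidative fibers, by -0.34 (adjusted p = 0.22) and Myh4, that of the fastest fibers, by 0.17 (adjusted p = 0.28). Myh1, a fast heavy chain between these, differed by 0.04 (adjusted p = 0.88). In the quadriceps 0 of 16 were called. The slow genes of the list overlapped between the muscles on the ground. Gastrocnemius minus quadriceps was 0.51 for Tnni1, 0.29 for Tnnt1 and 0.23 each for Myh7 and Tnnc1 (adjusted p = 0.24 to 0.67 in limma). For Myl2, Myl3 and Atp2a2 it was 0.16, 0.05 and 0.03 (adjusted p = 0.75 to 0.95 in limma). Myh7 ranged from 96.8 to 306 TPM in the ground quadriceps. Between the muscles, the fast light chain Mylpf (-0.87 on the ground and -0.90 after flight) and the calcium buffer Pvalb of fast fibers (-0.66 and -0.61) were called lower in the gastrocnemius, and Myh4 was lower by 0.49 and 0.53 (adjusted p = 0.0059 and 0.0040). Other fast heavy chains went the other way: Myh1 was higher in the gastrocnemius after flight, by 0.35 (adjusted p = 0.043), and differed by 0.25 on the ground (adjusted p = 0.11), and Myh2 differed by 0.24 and 0.26 (adjusted p = 0.082 and 0.064).

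The remaining enzymes of the pathway did not pass the test. Of 21 other glycolytic genes 10 were tested, and 0 were called in any comparison. Gpi1, which turns glucose-6-phosphate into fructose-6-phosphate, differed by 0.18 in the gastrocnemius (adjusted p = 0.29) and 0.16 in the quadriceps (adjusted p = 0.50) between flight and ground, without overlap. Pgam1, the mutase form found in most tissues, differed by -0.31 (adjusted p = 0.26) and -0.58 (adjusted p = 0.29), also without overlap. Copies of Pgam1 and of the other genes beside the members were not looked for. Hk2, the hexokinase of muscle, differed by -0.21 and -0.07 (adjusted p = 0.37 and 0.78), and Eno1, the widespread enolase, by -0.12 and -0.15 (adjusted p = 0.76 and 0.79).

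Genes that set the flux through the pathway were 11, of which 10 were tested. Egln3, an oxygen-sensing prolyl hydroxylase, was called higher in the gastrocnemius on the ground, by 0.64 (adjusted p = 0.020), at 12.9 ± 3.36 TPM against 7.79 ± 0.769 TPM (SD, n = 3). Fbp2, the muscle fructose-bisphosphatase that runs against phosphofructokinase, was lower by 0.38 after flight (adjusted p = 0.035) and differed by -0.32 on the ground (adjusted p = 0.058). Pfkfb1, which makes the activator of phosphofructokinase, differed by at most 0.06 in any of these comparisons. None of the 10 was called between flight and ground in either muscle.

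Transport and use of lactate and pyruvate were read from 18 genes, of which 15 were tested. Between flight and ground 0 were called in either muscle, and 14 of 15 in the gastrocnemius and 13 of 15 in the quadriceps had negative values, with medians of -0.17 and -0.12 log2 beside 0.02 and 0.01 over all genes. Slc16a1, the transporter MCT1 that imports lactate, differed by -0.51 (adjusted p = 0.11) and -0.36 (adjusted p = 0.41), without overlap in either muscle. Mpc2, of the mitochondrial pyruvate carrier, differed by -0.50 (adjusted p = 0.13) and -0.44 (adjusted p = 0.27 in limma), also without overlap. Slc16a3, the exporter MCT4 of fast fibers, differed by -0.16 and -0.15 (adjusted p = 0.62 and 0.74). Bsg, the chaperone of both transporters, was lower in the gastrocnemius than in the quadriceps, by 0.50 on the ground (adjusted p = 0.022) and by 0.60 after flight (adjusted p = 0.011), the latter past 1.5-fold. Pdk4, a kinase that shuts pyruvate dehydrogenase, differed by -0.01 and -0.29 between flight and ground (adjusted p = 0.99 and 0.66).

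The shuttles that carry NADH into mitochondria compete with lactate dehydrogenase for it. Of 10 such genes 9 were tested and 0 were called in any comparison. Gpd1, the cytosolic glycerol-3-phosphate dehydrogenase, differed by 0.30 and 0.23 between flight and ground (adjusted p = 0.16 and 0.50), without overlap in either muscle. Gpd2, its mitochondrial partner, was lower in the gastrocnemius on the ground, by 0.52 (adjusted p = 0.023). Mdh2, mitochondrial malate dehydrogenase, differed by at most 0.10 in either direction.

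Across the 12 libraries, Ldhb followed another course than most members. As a description only, over libraries that share 6 mice and 2 muscles, the Pearson r of Ldhb with the other members ran from -0.55 (Pkm) to 0.55 (Pgk1), whereas Ldha reached 0.97 with Eno3 and Pfkm reached 0.97 with Eno3. Among all genes tested, the closest to Ldhb were Nnt (r = 0.93), Alpk3 and Lpl (0.91 each), and Ech1 and Idh2 (0.89 each). Closest to Ldha were Acyp2 and Dhrs7c (0.99 each) and Cycs, Dnajc15 and Sec23a (0.98 each), and closest to Pgk1 were Morf4l1, Decr1, H2afz, Gyg and Gng5 (0.98 each).

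The promoters of both lactate dehydrogenase genes were read because their messages differed in opposite directions between the muscles on the ground. Hypoxia-inducible factor, a known activator of Ldha, binds sites with the core ACGTG, which was searched on both strands in the 250 bases before each start in the RefSeq promoter table of GRCm38.p6. All 10 members matched the table, with 17 promoters, and 5 members held the core in at least 1 promoter. It was in 7 of these 17 promoters and in 16.6% of all 32851 promoters in the table. The 7 are not independent, since overlapping Aldoa promoters hold the same match. Members with several promoters have more chances of a match. The share of all genes with the core in at least 1 promoter was not computed. It was found at 3 places (5 matches, since CACGTG reads the same on both strands) before the upstream Ldha start, at chr7:46845554-46845803 on the plus strand. It was found neither before the other Ldha start, at chr7:46846832-46847081, nor before the Ldhb start, at chr6:142507958-142508207 on the minus strand. Capitals mark the matches.
Ldha: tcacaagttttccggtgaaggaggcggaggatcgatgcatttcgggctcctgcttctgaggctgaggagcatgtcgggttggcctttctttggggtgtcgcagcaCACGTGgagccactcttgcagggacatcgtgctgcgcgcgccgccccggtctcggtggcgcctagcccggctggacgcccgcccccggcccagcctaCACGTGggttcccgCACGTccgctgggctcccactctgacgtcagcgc
Ldhb: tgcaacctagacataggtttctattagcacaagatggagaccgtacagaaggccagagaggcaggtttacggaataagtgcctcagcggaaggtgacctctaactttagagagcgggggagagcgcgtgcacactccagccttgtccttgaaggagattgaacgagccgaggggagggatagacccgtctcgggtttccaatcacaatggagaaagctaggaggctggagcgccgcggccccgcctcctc
A match describes these letters only, and nothing was measured of binding.

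Splicing of the members was read from the junction reads of skipped exons and mutually exclusive exons. Only Pkm and Aldoa had events, all of skipped exons, 1 of Pkm and 3 of Aldoa in each muscle, and the other 8 members had none. No other glycolytic gene of the list had one. Genes without a listed event, and exon pairs that were not listed, could not be tested here. No pair of mutually exclusive exons of Pkm was among the events. The tables name their groups in the order ground and flight but not the mice within them. In the gastrocnemius 0.378% of 2118 events tested were called, none of them in a member, and 9.49% had an unadjusted p under 0.05, again none in a member. In the quadriceps 0% of 2062 events were called and 7.61% had an unadjusted p under 0.05, none in a member.

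The Pkm event concerned an exon of 117 bases at chr9:59663040-59663156 on the plus strand. PSI here is the length-corrected share of an event's junction reads that include the exon, between given neighbouring exons. It is not a share of all messages of the gene. For Pkm the PSI in the gastrocnemius was 5.03% ± 5.0002 on the ground and 3.88% ± 2.0021 after flight (SD, n = 3). The adjusted p was 0.98 in limma. These values came from 25.7 and 56 junction reads per sample on average. In the quadriceps the ground samples had 9 reads on average, under the minimum of 10, and the event was not tested.

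All 3 Aldoa events skip the same exon of 153 bases from different first exons. The exon is shown because it holds a start codon, in capitals, 12 bases after its beginning, in all 3 Aldoa transcripts that include it. It is exon 2 of Aldoa-202, at chr7:126797974-126798126 on the minus strand.
Aldoa exon: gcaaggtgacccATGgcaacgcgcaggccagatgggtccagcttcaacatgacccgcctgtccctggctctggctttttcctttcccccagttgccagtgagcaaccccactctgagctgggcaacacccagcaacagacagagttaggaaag
Against the first exon at chr7:126799045-126799141, its PSI in the gastrocnemius was 11.8%, 12% and 14.3% on the ground and 8.96%, 19.0% and 9.09% after flight. Against the first exon at chr7:126800288-126800447 it was 23.1%, 26.3% and 38.5% on the ground and 15%, 40.8% and 17.1% after flight. The groups overlapped in both, and the adjusted p was 0.95 and 0.88. The events share their inclusion reads and are not independent.

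In the quadriceps the same exon against chr7:126799045-126799141 had PSI values of 11.1%, 2.56% and 100% on the ground and 0%, 6.67% and 10.4% after flight. The value of 100% rested on 4 inclusion reads and 0 skipping reads in 1 ground sample, and the adjusted p was 0.76. Without that sample the PSI differences against the other first exons, at chr7:126800002-126800036 and chr7:126800288-126800447, turned from -3.24 and -23.8 to 1.52 and 6.44 percentage points. No change of splicing was detected in these genes with these reads and this spread between samples.

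Aldoa has a second entry in the table, ENSMUSG00000114515, upstream of the main locus at chr7:126800790-126809108 on the minus strand. It was listed at 29.4 to 53.4 TPM and shared no 31-mer with another gene. Its level was lower in the gastrocnemius than in the quadriceps after flight, by 0.39 log2 (adjusted p = 0.044). On the ground the difference was -0.19 (adjusted p = 0.25 in limma), and the muscles overlapped. The shift of all genes between the muscles was not taken out of these values.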

How the data were processed

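Poly(A) RNA of 2 muscles from 6 mice was sequenced as stranded single-end reads. TPM were deposited as the authors made them, with kallisto (0.46.0 in the submitters' processing notes) summed per gene with tximport. The transcript set was not given in the sources used here. Junction read counts of splicing events were deposited by the authors from STAR (2.7.1a) and rMATS-turbo on mm10. The authors' comparison columns in the splicing tables, which hold p-values and PSI differences, were not used. The authors compared expression with DESeq2 (1.26.0), which needs counts and was not applied to TPM.

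For each muscle, flight and ground libraries were contrasted in limma 3.58.1 under R 4.3.3 (functions lmFit and eBayes, trend on). The values were log2(TPM + 1) of 10481 genes above 5 TPM in at least 1 library, and p-values were two-sided with Benjamini-Hochberg adjustment. A fold change on this scale understates the change of low genes. Muscles were compared in a fit of all 12 libraries with the mouse as a block, since both muscles came from the same animals named in the labels. The deviations of the 2 muscles of a mouse from their group means correlated by r of -0.12 to 0.33. Within a muscle, the limma p-values rest on the spread between 3 mice a group. Between the muscles, they rest on the spread of the differences within a mouse, taken over both conditions. In both, limma draws the spread of each gene toward that of genes of similar level. Copies of a member were genes sharing at least 50% of their 31-mers with it in GENCODE vM21. Splicing was tested by limma on log2 inclusion over skipping reads, with 0.5 added and divided by effective length, for events with a mean of over 10 reads in both groups leaving out those whose 6 samples all had a PSI of 0.05 or less, or all 0.95 or more. Changes of PSI over 5% at an adjusted p under 0.05 were called. The tests were tried on simulated data. Symbols were matched by gene identifier, and 152 of 36008 had none.

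The members and gene lists were chosen with earlier results of these data known. The text names every member, every listed gene called in any expression comparison, 16 further listed genes, and for Ldhb, Ldha and Pgk1 the 5 genes of highest r. The pseudogenes, the second Aldoa entry and Mpc2 were added after their values were seen. Alternatives covered the pseudocount, the filter, rescaling, the trend, the copies, the libraries in the fit, the block and each mouse left out.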

Additional observations from a re-analysis of the deposited data

How the results depend on the processing

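The members called between flight and ground in the gastrocnemius fell from 1 to 0 with no filter on low values, without a trend in limma and with the replicate number as a block (0 called), and ran from 0 to 2 with each mouse left out. The replicate numbers of ground and flight mice share only a number (r of -0.14, 0.11 and 0.0029 between their deviations in the gastrocnemius and -0.14, -0.065 and -0.18 in the quadriceps), and the block lowered the calls over all genes from 24 to 0 and from 3 to 0. The adjusted p of Ldhb was 0.10 with no filter, 0.082 without a trend and 0.14 with the block, 0.013 to 0.036 under the other alternatives that keep all mice, and 0.028 to 0.20 with each mouse left out. With no filter and without a trend, calls over all genes were 4 and 5 in the gastrocnemius and 1 and 1 in the quadriceps, and 1 after rescaling in the quadriceps. Pseudocount 0.1 and the fit of all 12 libraries gave 2 each there. Leaving out M11 gave 133 calls in the gastrocnemius, where the other left-out mice gave 1 to 8, and 1 to 4 in the quadriceps.

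For the muscles on the ground, the 4 members past the adjusted p became 0 with no filter, 1 after rescaling, 0 without a trend and 0 to 6 with each mouse left out. After flight, 5 became 1, 2 and 2 in that order and 0 to 5 with each mouse left out, and the members called were 0 to 1. Calls over all genes were 77 and 200 with no filter, and 36 to 335 and 77 to 354 with each mouse left out. The lower counts with no filter come with more genes tested. Leaving out a mouse leaves fewer samples. For the other alternatives the cause was not tested. Leaving the mouse out of the model (no replicate block) gave 5 and 5 members. The ratio between the muscles stayed between -0.59 and -0.46 with each mouse left out, at p = 0.0625 in the exact sign-flip test, the smallest that 5 mice allow.

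Some differences changed sign, none of them called. Rescaling turned Aldoa between flight and ground in the quadriceps to -0.0020, Gapdh between the muscles on the ground to 0.0043, and after flight Pgam2 to 0.048 and Ldhb to 0.036. Summing copies turned Pgk1 in the quadriceps from -0.61 to 0.035. With each mouse left out, the gastrocnemius gave -0.045 to 0.071 for Aldoa. For Tpi1 and Gapdh it gave -0.039 to 0.052 and -0.067 to 0.13. The quadriceps gave -0.031 to 0.047 for Pfkm, -0.013 to 0.036 for Aldoa, -0.15 to 0.089 for Pgam2 and -0.074 to 0.022 for Eno3, and Pgam2 between the muscles after flight ran from -0.25 to 0.13. PSI differences in percentage points ran from -3.66 to 1.34 for Pkm and -3.66 to 1.34 for the first Aldoa event in the gastrocnemius, and from -6.11 to 1.52 and -36.4 to 6.44 for the others in the quadriceps. The last range gives no value without ground sample 2, where the event missed the minimum of reads. TPM carry no depth.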
